A study of Mus musculus with 6 samples.

Results

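Transcripts of 35 mouse genes that bring pyruvate into mitochondria, run the tricarboxylic acid (TCA) cycle and refill it were described in TKO cells with and without MNRR1. TKO is a mouse ovarian cancer line described as a triple knockout, and the labels do not name its 3 deleted genes, which the knockout and wild-type groups share. MNRR1 is the product of Chchd2, a protein of the mitochondrial intermembrane space and the nucleus. The KO group was 3 libraries of MNRR1-knockout TKO cells, which carry a single clone name and so stand for 1 clone, and the WT group was 3 libraries of TKO cells with MNRR1 intact. No treatment or time point was given for either group. The members were the rows of the deposited table of 49315 Ensembl gene IDs whose GRCm38 gene symbol was on a fixed list of enzymes and carriers, and all 35 symbols matched 1 row each.

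Pyruvate made by glycolysis enters the mitochondrial matrix through the pyruvate carrier and is turned into acetyl-CoA by the pyruvate dehydrogenase complex, which a family of kinases switches off by phosphorylation. The TCA cycle then oxidises acetyl-CoA in a ring of reactions from citrate back to oxaloacetate and feeds electrons to the respiratory chain. Because the cycle also loses intermediates to biosynthesis, pyruvate carboxylase and the enzymes of glutamate and aspartate refill it, a process called anaplerosis.

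Promoter windows are shown for the pair of members with the greatest rises in the knockout clone, Pdk2 and Idh1, and for Pdha1, which had the greatest fall among members with an entry in the promoter table. Each window is RefSeq sequence of GRCm38.p6 from 250 bases before to 50 bases after an annotated transcript start, on the strand of the gene. Capitals mark letters that match any of 6 searched motifs on either strand, namely ACGTG (the core bound by hypoxia-inducible factors), TGATGNAA (ATF4), TGGGAA (RBPJ, a DNA-binding partner reported for MNRR1), the NRF1 motif, CCGGAAG (GABPA) and AAGGTCA (ERRA). The Pdk2 window is chr11:95041322-95041621, the Idh1 window chr1:65186430-65186729 and the Pdha1 window chrX:160138381-160138680, all on the minus strand.
Pdk2: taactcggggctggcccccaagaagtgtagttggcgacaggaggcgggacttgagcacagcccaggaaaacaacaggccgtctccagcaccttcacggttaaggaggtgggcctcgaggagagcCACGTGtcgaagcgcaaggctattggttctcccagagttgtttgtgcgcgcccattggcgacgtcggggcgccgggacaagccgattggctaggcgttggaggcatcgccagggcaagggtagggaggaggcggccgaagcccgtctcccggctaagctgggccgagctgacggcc
Idh1: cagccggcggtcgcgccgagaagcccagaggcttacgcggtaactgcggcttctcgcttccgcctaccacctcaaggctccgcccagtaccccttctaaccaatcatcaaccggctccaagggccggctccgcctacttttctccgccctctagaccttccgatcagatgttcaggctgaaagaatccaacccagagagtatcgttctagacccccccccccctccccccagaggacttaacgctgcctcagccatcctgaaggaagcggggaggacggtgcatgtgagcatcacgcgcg
Pdha1: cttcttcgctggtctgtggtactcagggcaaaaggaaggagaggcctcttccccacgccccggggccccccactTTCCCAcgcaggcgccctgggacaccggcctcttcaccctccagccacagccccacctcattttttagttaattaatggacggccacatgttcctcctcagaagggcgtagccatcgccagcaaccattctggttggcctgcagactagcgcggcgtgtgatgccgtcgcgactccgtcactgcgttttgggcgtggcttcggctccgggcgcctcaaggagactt
In the Pdk2 window the palindrome CACGTG begins 126 bases before the start and holds ACGTG once on each strand. These matches overlap in a single site, and binding by any factor was not tested. The Pdha1 window holds TTCCCA, the reverse complement of TGGGAA, 176 bases before the start, and the Idh1 window holds none of the 6 motifs. ACGTG was found in 8 of 32 member windows (25.0%) and in 19.6% of all 32851 windows of this length. TGGGAA was found in 9 member windows (28.1%) and in 25.6% of all windows. The ATF4 motif was in 1 member window (3.1%, against 3.97% of all windows) and that of ERRA in 2 (6.2% against 4.72%). The NRF1 motif was in 4 (12.5% against 4.60%) and that of GABPA in 7 (21.9% against 8.86%). These differences in share were not tested.

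Libraries held between 33226463 and 40983999 counts, of which the members took 0.543% to 0.557% in KO and 0.515% to 0.527% in WT libraries. These are shares of raw library totals, a scaling that moved the median of all genes up in KO, as given below. Chchd2 measured 17.1 ± 0.498 CPM in KO libraries against 352 ± 13.7 CPM in WT (SD, n = 3 each), with CPM the depth-normalised count after TMM scaling, so the targeted gene went with the labels. Of 18 ovarian epithelial and Mullerian markers, 5 were under 1 CPM in every library (Cdh1, Pax8, Pax2, Foxl2 and Lhx9), and the summed level of the list was 3827 to 4150 CPM in KO and 5395 to 5564 CPM in WT libraries. The 7 stromal markers summed to 940 to 1009 CPM in KO and 885 to 928 CPM in WT, the 7 immune markers to 3.02 to 3.68 and 5.29 to 8.08 CPM with Cd3e at 0 throughout, and the 5 endothelial markers to 2.70 to 3.63 and 5.71 to 6.19 CPM. Within these lists, 2 of 15 tested ovarian markers rose and 8 fell, and 2 of 6 tested stromal markers rose and 2 fell. Both tested immune markers fell, and of 3 tested endothelial markers 1 rose and 1 fell. Called markers were 66.7% of those tested on the ovarian, stromal and endothelial lists alike, where 55.7% of all tested genes were called. The stromal sum hides opposite changes, with Col1a1 at 134 ± 5.47 CPM in WT and 10.3 ± 1.85 in KO, Thy1 at 2.28 ± 0.389 CPM in WT and no counts in KO, Col3a1 at 268 ± 2.21 and 480 ± 34.5 CPM and Pdgfrb at 1.08 ± 0.194 and 4.74 ± 1.42 CPM. The part of these marker differences in the results was not tested, and in bulk RNA fewer cells of a type and less RNA per cell cannot be told apart. KO replicate 2 lay nearest to WT among the KO libraries for 19 of the 21 members called below, against 71.4% of all called genes.

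All but 3 of the tested members stayed within 1.5-fold of WT in the knockout clone, and those that changed went both ways. Of 35 members, 34 passed the filter on low counts and Pdk4 did not. At an adjusted p under 0.05 in edgeR's quasi-likelihood test, 11 members rose and 10 fell, which is 61.8% of the members tested, where 55.7% of all 16033 tested genes were called (27.8% higher and 27.8% lower). No overlap between the genotypes was seen for 24 of the 34, or 70.6%, against 64.0% of all tested genes. The share of members called was thus near the background, and so was their median log2 change of -0.00, against 0.01 for all tested genes. A call with at least a 1.5-fold change was made for 3 members, Pdk2, Idh1 and Pdk1, which is 8.82% of those tested against 26.6% of all tested genes, and the median absolute log2 change was 0.20 for members and 0.35 for all tested genes.

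The split between rises and falls depended on how libraries were scaled. Scaling by library totals moved the median log2 change of all genes from 0.01 to 0.13, and 17 members were then higher and 3 lower, the 3 being Pdha1, Dlat and Idh3a. Upper-quartile scaling gave 13 higher and 6 lower, and 4 members were lower without KO replicate 1 or without WT replicate 1. Of all 16033 tested genes, library totals gave 5769 higher and 3294 lower, and upper quartiles 4993 and 3927. Without KO replicate 1, 3799 of all 16462 tested genes were lower, and without WT replicate 1, 3841 of 16563. Calls of 11 members were kept under each of the 15 other fits tried, namely Mpc1, Pdhb, Pdk1, Pdk2, Idh1, Idh2, Suclg2 and Mdh1 as rises and Pdha1, Dlat and Idh3a as falls. The other 10 calls were lost in at least 1 fit, and no called member changed sign in any. How many of all called genes kept their call in every fit was not counted. Whether members were more or less stable than other genes is therefore not known.

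**Figure D1:**
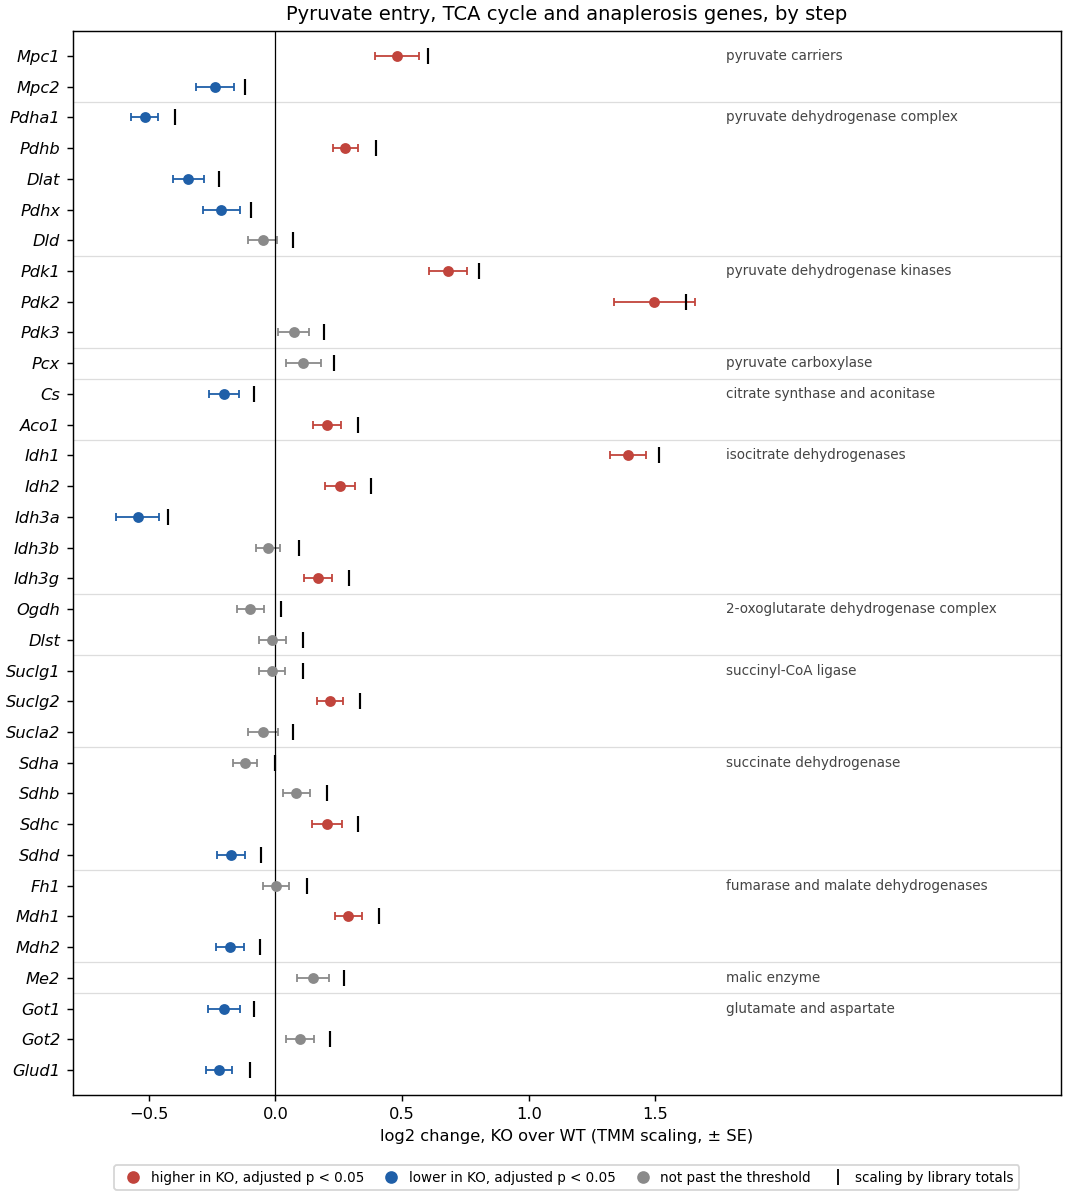
Fitted log2 change of KO over WT for the 34 tested members, ordered by pathway step, with TMM scaling (dots, bars ± SE, 3 libraries per group) and with scaling by library totals (vertical ticks). Red and blue dots passed an adjusted p of 0.05 as higher or lower and grey dots did not. Pdk2 at 1.496 and Idh1 at 1.39 stand far to the right of the rest, and the ticks lie to the right of every dot, so that small falls such as those of Cs, Mdh2 and Sdhd shrink and Dld, Idh3b, Ogdh, Dlst, Suclg1, Sucla2 and Sdha cross 0.

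The mitochondrial pyruvate carrier is built from the products of Mpc1 and Mpc2, and their transcripts moved in opposite directions. Mpc1 (chromosome 17, positions 8282904 to 8297661, plus strand, GRCm38) was at 27.3, 27.0 and 32.0 CPM in KO replicates 1 to 3 and 21.4, 19.3 and 21.1 CPM in WT replicates 1 to 3. Every KO library was above every WT library, and the log2 change was 0.48 (SE 0.09, adjusted p = 6.66e-04). Mpc2 stood at 15.7, 16.0 and 15.4 CPM across the KO libraries and 18.4, 19.2 and 17.97 CPM across WT, with no overlap and a log2 change of -0.24 (SE 0.08, adjusted p = 0.0196). The Mpc2 call failed on leaving out KO replicate 1, WT replicate 1 or WT replicate 2 (adjusted p = 0.0599, 0.0570 and 0.0804), with upper quartiles (0.0517) and with library totals (0.205), in a range of 0.0120 to 0.205. Of the exon bases of Mpc1, 23.1% are shared with the antisense transcript 4930506C21Rik, which had 29 to 90 counts per library against 656 to 1242 for Mpc1. A copy, Mpc1-ps on chromosome 12, matches Mpc1 at 99.7% identity over 330 bases and held 73, 139 and 143 counts in KO libraries, against 66, 57 and 101 counts in WT, so reads of the pair may be divided between them.

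The pyruvate dehydrogenase complex has an E1 enzyme of alpha and beta subunits (Pdha1 and Pdhb), an E2 acetyltransferase (Dlat), a binding protein (Pdhx) and the E3 dehydrogenase (Dld) that other complexes share. Of these 5 genes, Pdha1, Dlat and Pdhx fell, Pdhb rose and Dld did not pass the test. Pdha1 (chromosome X, positions 160122209 to 160138413, minus strand, GRCm38), whose promoter window is given above, had KO values of 153, 164 and 155 CPM and WT values of 229, 231 and 215 CPM. All KO values were below all WT values, and the change was a log2 of -0.52 (SE 0.05, adjusted p = 1.71e-05), or 0.699 times the WT level. Its partner Pdhb (chromosome 14, positions 8165996 to 8173025, minus strand) reached 122, 127 and 130 CPM in KO libraries, where WT had 105, 104 and 105 CPM, a rise of 0.28 (SE 0.05, adjusted p = 7.23e-04).

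Both E1 subunits are needed for an active enzyme. A ratio of their transcripts within a library does not depend on scaling between libraries. The ratio of Pdha1 to Pdhb, each as CPM per kilobase of exon, was 1.29, 1.33 and 1.23 in KO libraries, against 2.26, 2.30 and 2.11 in WT. It was lower in every KO library, with a log2 difference of -0.79 and a p of 0.1 in an exact two-sided permutation test, the smallest that 3 against 3 libraries allow. This was 1 of 5 subunit ratios, chosen after the values were seen, which each gave p = 0.1 in the exact test and an adjusted p of 0.1. Of the exon bases of Pdha1, 16.2% overlap Map3k15 on the opposite strand, which had 2064, 2111 and 2184 counts in KO libraries, against 1607, 1590 and 1783 counts in WT, a rise of 0.28 (adjusted p = 0.00315). A copy of Pdhb, Gm6123, matches it at 97.0% over 1079 bases and had 496, 599 and 515 counts in KO libraries, against 462, 423 and 461 counts in WT, while Pdhb itself had 3510 to 5186. The sources used here do not say how strand and multiply mapped reads were handled, so part of either gene's reads may be counted elsewhere.

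Dlat measured 74.2, 81.9 and 73.7 CPM in KO libraries against 99.0, 99.7 and 93.0 CPM in WT, a log2 change of -0.34 (SE 0.06, adjusted p = 5.98e-04). Pdhx changed less, from 60.5 ± 1.24 to 52.1 ± 5.36 CPM (SD, n = 3 each), and KO replicate 2 at 58.1 CPM came close to the lowest WT library at 59.1 CPM. The Pdhx call (-0.21, adjusted p = 0.0283) failed on leaving out KO replicate 1 (adjusted p = 0.110), KO replicate 3 (0.0765) or any of the WT libraries (0.0918, 0.0845 and 0.0521), with upper quartiles (0.0764) and with library totals (0.244), in a range of 1.13e-04 to 0.244. Dld stood at 184 ± 13.8 CPM across the KO libraries and 190 ± 1.57 CPM across WT (log2 change -0.05, adjusted p = 0.488). Without KO replicate 2, whose 199 CPM was above every WT library, Dld was at -0.12 and passed the test (adjusted p = 0.0192), in a range of 0.0192 to 0.996.

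The kinases that phosphorylate E1 alpha and so inactivate the complex held the greatest rise of the whole set. Pdk2 (chromosome 11, positions 95026258 to 95041354, minus strand, GRCm38) had KO values of 13.8, 10.9 and 17.3 CPM and WT values of 5.12, 4.63 and 5.11 CPM. KO libraries spread over a wide range, and the lowest, replicate 2, was still above every WT library. The fold change was 2.82 (log2 1.496, SE 0.16, adjusted p = 2.42e-05). Pdk1 (chromosome 2, positions 71873224 to 71903858, plus strand) reached 119, 99.0 and 122 CPM in KO libraries, where WT had 68.8, 72.1 and 71.0 CPM. Again replicate 2 was the lowest KO library and the groups did not overlap, with a log2 change of 0.68 (SE 0.08, adjusted p = 2.91e-05).

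Pdk3 was even across the KO libraries at 65.4, 65.8 and 65.4 CPM, against 65.6, 63.7 and 57.8 CPM in WT libraries. The groups overlapped, the log2 change was 0.07 (adjusted p = 0.336), and it passed only with library totals (0.19, adjusted p = 0.0143), in a range of 0.0143 to 0.858. Pdk4, the isoform induced by fasting and lipid signals, had 1, 2 and 0 counts in KO libraries, against 2, 16 and 2 counts in WT. Those counts were too few for a test, and 16 of the 20 WT counts came from replicate 2.

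Set on a common scale of CPM per kilobase of exon, Pdk3 was the leading kinase transcript in both genotypes, and its share was lower in KO than in WT libraries while those of Pdk1 and Pdk2 were higher. Pdk3 made up 71.0%, 69.6% and 67.7% of the summed kinase level in WT libraries and 56.5%, 61.4% and 54.8% in KO libraries. For Pdk1 the share was 25.9% ± 1.44 in WT and 32.6% ± 1.92 in KO, and for Pdk2 4.48% ± 0.377 and 9.86% ± 1.77 (SD, n = 3 each). None of these 3 shares overlapped between genotypes, and each gave p = 0.1 in the exact two-sided permutation test (adjusted p = 0.1 over 12 shares). The lead of Pdk3 depends on the length used: in plain counts Pdk1 held 51.2% of the WT total and Pdk3 45.1%.

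**Figure D2:**
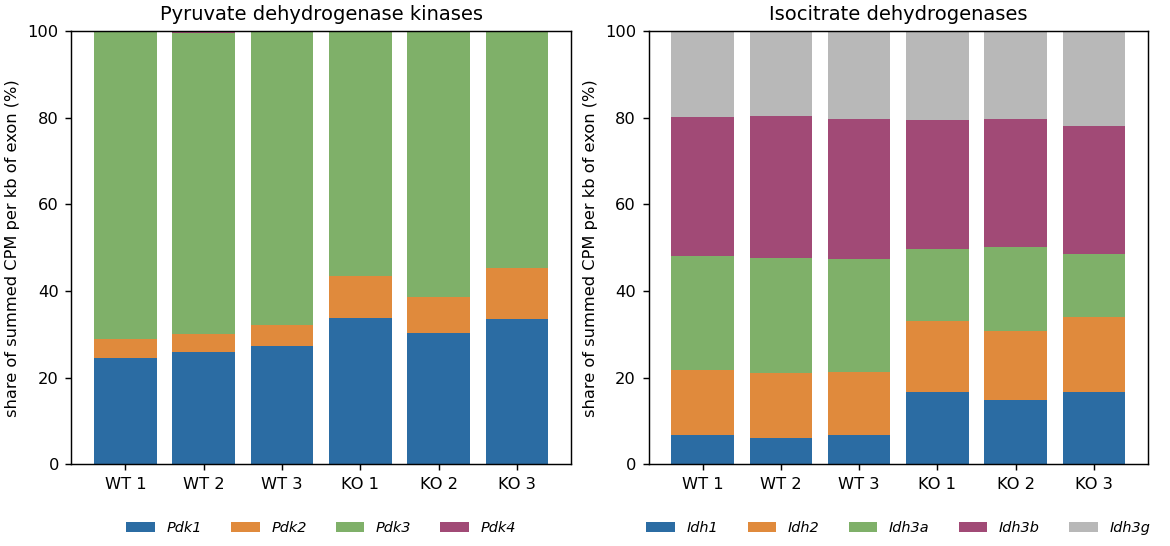
Share of the summed level, in percent of CPM per kilobase of exon, taken by each kinase gene (left) and each isocitrate dehydrogenase gene (right) in each of the 6 libraries. In all 3 KO libraries Pdk1 and Pdk2 take more and Pdk3 less than in any WT library, and Idh1 takes more and Idh3a less.

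Pcx encodes pyruvate carboxylase, which turns pyruvate into oxaloacetate. It measured 36.6 ± 2.65 CPM in KO libraries against 33.9 ± 1.30 CPM in WT (SD, n = 3 each), with overlapping groups and a log2 change of 0.11 (adjusted p = 0.205). It passed with library totals (0.23, adjusted p = 0.0122), in a range of 0.0122 to 0.438.

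Citrate synthase (Cs) joins acetyl-CoA to oxaloacetate and opens the cycle. Cs stood at 421, 467 and 415 CPM across the KO libraries and 515, 502 and 484 CPM across WT, with no overlap and a log2 change of -0.20 (SE 0.06, adjusted p = 0.0118). Its call failed on leaving out KO replicate 1 or WT replicate 1 (adjusted p = 0.0680 and 0.0579) and with library totals (0.146), in a range of 3.35e-05 to 0.146. Aco1, the cytosolic aconitase that also serves as an iron regulatory protein, had KO values of 104, 100 and 111 CPM and WT values of 92.6, 88.8 and 91.3 CPM. It rose by 0.21 (SE 0.05, adjusted p = 0.00814), a call that failed on leaving out WT replicate 2 (adjusted p = 0.0503), in a range of 4.03e-04 to 0.0503.

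Isocitrate dehydrogenases were the step with the widest spread of changes. Idh1, the NADP-dependent enzyme of cytosol and peroxisomes (chromosome 1, positions 65158616 to 65186500, minus strand, GRCm38), reached 89.99, 80.3 and 93.5 CPM in KO libraries, where WT had 34.8, 31.5 and 34.2 CPM. The groups were far apart, with a fold change of 2.62 (log2 1.39, SE 0.07, adjusted p = 1.63e-07). Idh2, its mitochondrial NADP-dependent counterpart, measured 82.3, 81.2 and 91.4 CPM in KO libraries against 72.6, 71.4 and 69.5 CPM in WT, a rise of 0.26 (SE 0.06, adjusted p = 0.00379).

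Idh3 is the NAD-dependent enzyme of the cycle itself, made of catalytic alpha subunits with beta and gamma partners, and its genes did not move together. Idh3a (chromosome 9, positions 54586334 to 54604661, plus strand, GRCm38) stood at 164, 194 and 148 CPM across the KO libraries and 249, 246 and 243 CPM across WT. WT libraries were nearly equal, KO libraries ranged more widely, and the log2 change was -0.54 (SE 0.08, adjusted p = 3.09e-04), the greatest fall among the members, or -0.66 without KO replicate 2. Idh3b had KO values of 199, 197 and 206 CPM and WT values of 204, 206 and 204 CPM (log2 change -0.03, adjusted p = 0.631). Idh3g rose by 0.17 (adjusted p = 0.0254), from 99.2 ± 1.36 to 111 ± 6.88 CPM, a call that failed on leaving out KO replicate 3 (adjusted p = 0.0838) or any of the WT libraries (0.0788, 0.104 and 0.0630), in a range of 0.00179 to 0.104.

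The ratio of Idh3a to Idh3b per kilobase of exon was 0.556, 0.664 and 0.485 in KO libraries, against 0.822, 0.805 and 0.806 in WT. The ratio of Idh3a to Idh3g was 0.814, 0.958 and 0.662 in KO libraries, against 1.33, 1.34 and 1.29 in WT. Both ratios were lower in every KO library (exact two-sided permutation p = 0.1 for each, the smallest possible). For Idh3a to Idh3g that outcome was fixed beforehand, as Idh3a lay below and Idh3g above WT in every KO library. Among all 5 isocitrate dehydrogenase genes, the share of Idh1 went from 6.55% ± 0.325 in WT to 16.0% ± 1.10 in KO and that of Idh3a from 26.3% ± 0.162 to 16.8% ± 2.54 (SD, n = 3 each), each with p = 0.1 in the exact permutation test.

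**Figure D3:**
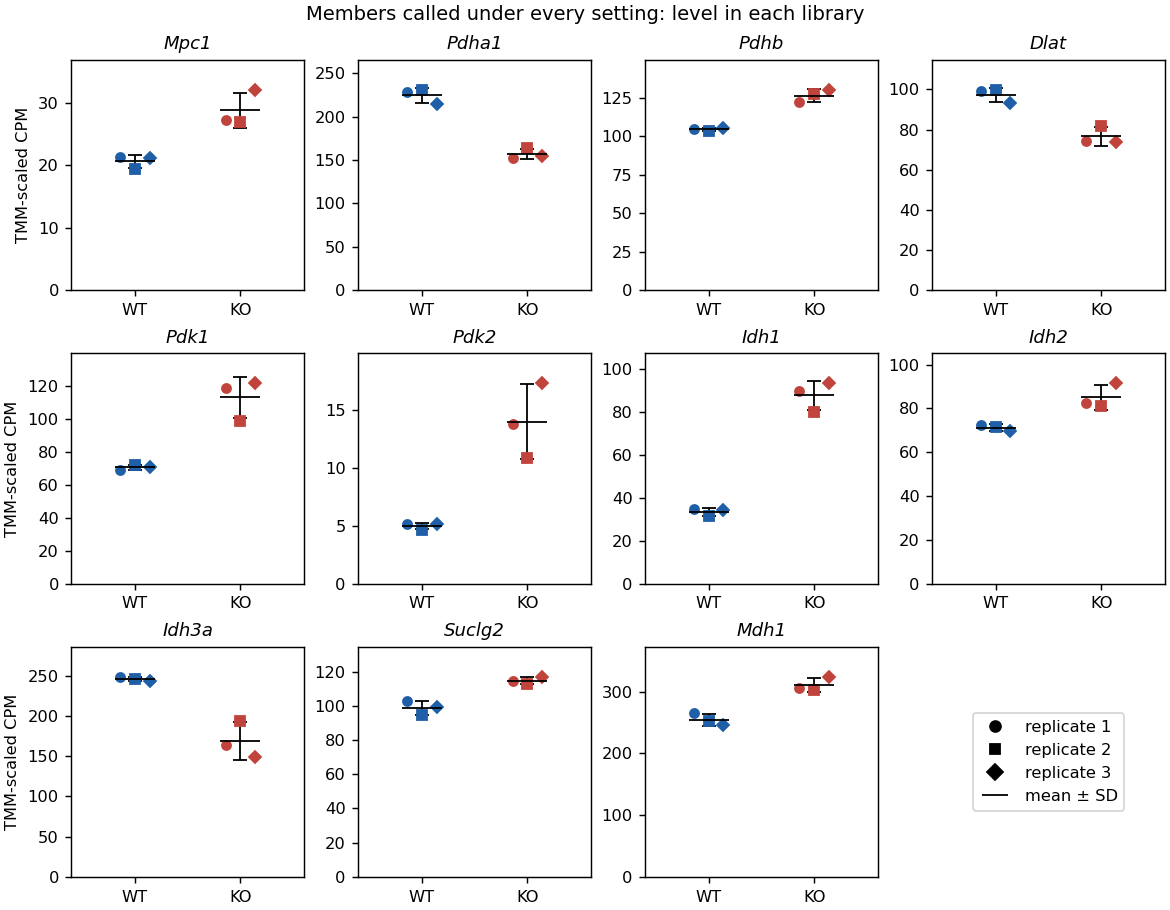
TMM-scaled CPM in each library (blue WT, red KO, marker shape for the replicate, bars for the mean ± SD, axes from 0) for the 11 members whose call held in every fit tried. Groups are separate in all 11 panels, and KO replicate 2 is the KO library nearest to WT in every panel except that of Pdhb. The WT libraries of Idh3a lie between 243 and 249 CPM.

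The oxoglutarate dehydrogenase complex turns oxoglutarate into succinyl-CoA with an E1 (Ogdh) and an E2 (Dlst) of its own and the shared E3 Dld. Neither Ogdh nor Dlst passed the test. Ogdh reached 240, 249 and 247 CPM in KO libraries, where WT had 279, 257 and 254 CPM, a log2 change of -0.10 (adjusted p = 0.131) that passed without KO replicate 2 (-0.11, adjusted p = 0.0414), in a range of 0.0414 to 0.717, and turned to 0.02 with library totals. Dlst measured 226 ± 11.5 CPM in KO libraries against 228 ± 5.07 CPM in WT (log2 change -0.01, adjusted p = 0.857).

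Succinyl-CoA ligase pairs a common alpha subunit (Suclg1) with a beta subunit that makes either GTP (Suclg2) or ATP (Sucla2). Suclg2 rose in the knockout clone and the other two genes did not pass the test. It stood at 115, 113 and 117 CPM across the KO libraries and 103, 94.8 and 99.1 CPM across WT, with a log2 change of 0.21 (SE 0.05, adjusted p = 0.00458). Sucla2 had KO values of 65.6, 73.3 and 67.0 CPM and WT values of 70.2, 73.0 and 70.1 CPM (log2 change -0.05, adjusted p = 0.503). Suclg1 was at 128, 138 and 132 CPM in the KO libraries, within which the WT values of 136, 129 and 135 CPM fell (log2 change -0.01, adjusted p = 0.858). As a share of both beta subunits per kilobase of exon, Suclg2 made up 60.1%, 57.0% and 60.1% in KO libraries, against 55.8%, 52.8% and 55.0% in WT. The lowest KO share was above the highest WT share (exact permutation p = 0.1).

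Succinate dehydrogenase is both a cycle enzyme and complex II of the respiratory chain, with a flavoprotein (Sdha), an iron-sulfur protein (Sdhb) and a pair of membrane anchors (Sdhc and Sdhd). The anchors went in opposite directions. Sdhc reached 82.3, 77.6 and 84.9 CPM in KO libraries, where WT had 75.2, 68.1 and 69.2 CPM, a rise of 0.20 (SE 0.06, adjusted p = 0.0136). Sdhd measured 130, 142 and 129 CPM in KO libraries against 151, 147 and 154 CPM in WT, a log2 change of -0.18 (SE 0.05, adjusted p = 0.0165). KO replicate 2 was again the KO library nearest to WT for both.

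Neither anchor call was stable. That of Sdhc failed on leaving out KO replicate 1, WT replicate 2 or WT replicate 3 (adjusted p = 0.0532, 0.0793 and 0.0611), in a range of 9.15e-04 to 0.0793. That of Sdhd failed on leaving out KO replicate 1, WT replicate 1 or WT replicate 3 (adjusted p = 0.0839, 0.0573 and 0.0610), with upper quartiles (0.0691) and with library totals (0.342), in a range of 2.58e-04 to 0.342. The ratio of Sdhc to Sdhd per kilobase of exon needs no scaling. It was 0.240, 0.208 and 0.249 in KO libraries, against 0.189, 0.175 and 0.171 in WT, without overlap (exact permutation p = 0.1). As Sdhc lay above and Sdhd below WT in every KO library, the ratio could not overlap and is no separate test. Sdha stood at 194, 200 and 192 CPM across the KO libraries and 214, 216 and 207 CPM across WT, with no overlap, and its log2 change of -0.12 came short of a call (adjusted p = 0.0514). It passed without KO replicate 2 (-0.14, adjusted p = 0.00630), with DESeq2 size factors (0.0439) and with a 1 CPM filter (0.0475) and was at 0 to 2 decimals with library totals, in a range of 0.00630 to 1.00. Sdhb was at 78.9 ± 1.89 and 74.5 ± 2.93 CPM (log2 change 0.08, adjusted p = 0.220), and it passed with library totals (0.20, adjusted p = 0.00768), in a range of 0.00768 to 0.527.

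Fumarase and the malate dehydrogenases close the cycle. Fh1 had KO values of 117 ± 4.19 CPM and WT values of 117 ± 2.01 CPM, with a log2 change of 0.00 (adjusted p = 0.969), and it passed with library totals alone (0.12, adjusted p = 0.0399), in a range of 0.0399 to 0.979. The cytosolic Mdh1 and the mitochondrial Mdh2 changed in opposite directions. Mdh1 reached 305, 303 and 324 CPM in KO libraries, where WT had 265, 253 and 246 CPM, a rise of 0.29 (SE 0.05, adjusted p = 7.91e-04). Mdh2 measured 619, 677 and 638 CPM in KO libraries against 765, 720 and 707 CPM in WT, a log2 change of -0.18 (SE 0.06, adjusted p = 0.0184). The share of Mdh1 in both, per kilobase of exon, was 40.6%, 38.3% and 41.3% in KO libraries, against 32.4%, 32.7% and 32.6% in WT. These shares did not overlap (exact permutation p = 0.1). That outcome was fixed beforehand, as Mdh1 lay above and Mdh2 below WT in every KO library. The Mdh2 call failed on leaving out KO replicate 1, WT replicate 1 or WT replicate 2 (adjusted p = 0.104, 0.0916 and 0.0509), with upper quartiles (0.0625) and with library totals (0.282), in a range of 3.76e-04 to 0.282.

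Me2, the mitochondrial malic enzyme that turns malate back into pyruvate, stood at 216, 241 and 204 CPM across the KO libraries and 202, 201 and 193 CPM across WT. Values did not overlap, and the log2 change of 0.15 came short of a call (adjusted p = 0.0660). Me2 passed without KO replicate 3 (0.20, adjusted p = 0.0101), with upper quartiles (0.0163), a 1 CPM filter (0.0486), a replicate term (0.0463) and library totals (0.00148), in a range of 0.00148 to 0.211. Without KO replicate 2, the highest library at 241 CPM, its log2 change was 0.08 (adjusted p = 0.121).

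Glutamate and aspartate feed the cycle through aminotransferases and glutamate dehydrogenase. The mitochondrial dehydrogenase Glud1 had KO values of 120, 128 and 122 CPM and WT values of 146, 144 and 140 CPM, a log2 change of -0.22 (SE 0.05, adjusted p = 0.00307), which was lost with library totals (adjusted p = 0.0683), the highest of its settings. The cytosolic aminotransferase Got1 reached 201, 223 and 193 CPM in KO libraries, where WT had 247, 234 and 228 CPM, a log2 change of -0.20 (SE 0.06, adjusted p = 0.0162). The call of Got1 failed on leaving out KO replicate 1 or WT replicate 1 (adjusted p = 0.0757 and 0.0832) and with library totals (0.189), in a range of 4.98e-05 to 0.189. Got2, the mitochondrial form, measured 329 ± 17.6 CPM in KO libraries against 308 ± 7.44 CPM in WT (log2 change 0.10, adjusted p = 0.151), and it passed with upper quartiles (0.0307) and library totals (0.00178), in a range of 0.00178 to 0.350. As a share of both aminotransferases per kilobase of exon, Got1 was at 54.9%, 54.9% and 52.8% in KO libraries, against 59.7%, 59.4% and 58.8% in WT, with no overlap (exact permutation p = 0.1).

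By compartment, a grouping made after the values were seen, all 4 cytosolic members were called, Idh1, Mdh1 and Aco1 as higher and Got1 as lower. Of 30 tested mitochondrial members, 8 rose and 9 fell, or 56.7% called where 55.7% of all tested genes were, and their median was a log2 change of -0.01. Levels per kilobase of exon put Mdh2 first in both genotypes, at 205 ± 8.49 CPM per kilobase in WT and 181 ± 8.29 in KO libraries. Sdhd (122 ± 2.58) and Mdh1 (99.1 ± 3.66) followed in WT, and in KO Mdh1 (121 ± 4.52) came before Sdhd (108 ± 5.78). Idh1 went from rank 29 to rank 18 of 35, with 12.1 ± 0.644 CPM per kilobase in WT and 31.7 ± 2.46 in KO libraries. This order rests on the union of all annotated exons as the length, which for Mpc2 is 7344 bases against 1025 for its principal transcript. With principal transcript lengths, chosen after seeing the data, Mdh2 was again first, WT then had Cs (171 ± 5.22), Idh3b (127 ± 0.910), Sdhd, Got2 and Mdh1, KO had Cs, Mdh1, Got2, Idh3b and Sdhd, and Idh1 went from rank 31 to rank 21. Sdhd, Got2 and Mdh1 in WT and Cs and Mdh1 in KO then lay within their SDs of each other. In KO, Got2 (130 ± 6.96) and Idh3b (124 ± 3.04) also differed by less than the SD of Got2.

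KO libraries varied more among themselves than WT libraries did. The SD was larger in KO for 26 of 34 tested members, or 76.5%, against 64.4% of all tested genes, and the median coefficient of variation of members was 5.22% in KO and 2.60% in WT libraries (9.82% and 6.09% over all tested genes). KO replicate 2 was the library farthest from the other two of its group for 21 of 34 members, against 47.7% of all tested genes. Without it, 11 members were higher and 13 lower, with Dld, Ogdh and Sdha added as lower, and calls over all genes rose too, to 4938 higher and 5064 lower of 16510 tested. Log2 changes without it were 0.06 for Pcx, 0.05 for Got2, -0.10 for Sucla2, -0.06 for Dlst, -0.04 for Suclg1, -0.02 for Idh3b and -0.02 for Fh1, none of which passed, and -0.30 for Pdhx (adjusted p = 1.13e-04).

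Genes next to the pathway were read from 5 lists of 79 genes, chosen with earlier results of these data known. Of 73 tested, 40 rose and 16 fell, which is 76.7% called where the background is 55.7%, and the median log2 change was 0.28. On the pyruvate and acetyl-CoA list 9 of 14 rose and 2 fell, on the cycle list 7 of 12 rose and 1 fell, and on the anaplerosis list 13 of 23 rose and 6 fell. Among mitochondrial carriers 4 of 7 rose and 1 fell, and among regulators 7 of 17 rose and 6 fell. With library totals the counts over all 5 lists were 42 and 15, close to those with TMM.

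Pdp2, a phosphatase that reactivates pyruvate dehydrogenase and so opposes the Pdk kinases, rose from 26.5 ± 1.64 to 53.5 ± 2.07 CPM (log2 1.01, adjusted p = 1.04e-06). Gpt2, the mitochondrial alanine aminotransferase, rose by 1.16. The lactate dehydrogenase subunit Ldhb rose by 0.71, from 29.3 ± 2.33 to 47.8 ± 7.75 CPM. The other subunit, Ldha, had a far higher level and fell, from 844 ± 21.3 to 658 ± 60.9 CPM (log2 -0.36, adjusted p = 0.00105). Lipt2, which helps to attach lipoic acid to the dehydrogenase complexes, was at -0.64. On the cycle list Ogdhl, a relative of Ogdh, rose from 0.555 ± 0.200 to 4.41 ± 0.227 CPM (log2 2.97), and Adhfe1, which converts hydroxyacids with oxoglutarate, rose by 1.44. D2hgdh, a mitochondrial dehydrogenase of hydroxyglutarate, rose by 0.59.

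On the anaplerosis list 4 rises are named. Pck2, the mitochondrial carboxykinase that makes phosphoenolpyruvate from oxaloacetate, went from 14.3 ± 0.852 to 75.2 ± 7.15 CPM (log2 2.39, SE 0.08, adjusted p = 1.29e-08). Glul (glutamine synthetase) went from 64.9 ± 6.25 to 228 ± 59.1 CPM (log2 1.81), with a wide spread in KO. Aldh5a1, which makes succinate from the GABA pathway, and Aldh4a1, which makes glutamate from proline, rose by 1.87 and 1.10. Among carriers Slc25a22 (glutamate), Slc25a1 (citrate) and Slc25a12 (aspartate and glutamate) rose by 0.58, 0.55 and 0.46, and Slc25a10 (dicarboxylates) was at -0.52. The regulators Foxo3, Sirt4 and Sirt3 rose by 1.12, 0.77 and 0.68 and Myc was at -1.05, whose call was lost with no filter on low counts (adjusted p = 0.0665, the highest of its settings).

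**Figure D4:**
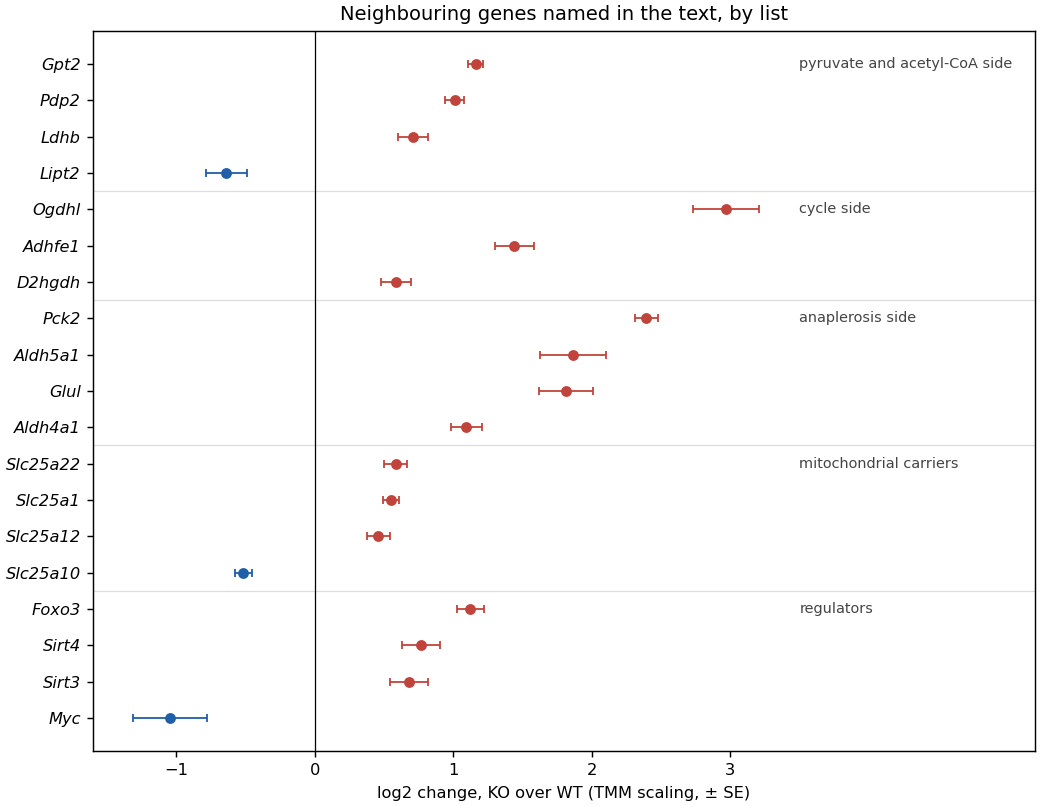
Fitted log2 change of KO over WT (dots, bars ± SE, 3 libraries per group) for 19 neighbouring genes named in the text, which are all called genes, so none is grey. Ldha is not drawn. Red is higher and blue lower in KO, and Ogdhl at 2.97 and Pck2 at 2.39 lie farthest to the right.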

How the data were processed

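RNA of 3 KO and 3 WT libraries was sequenced, and the authors deposited raw counts of reads per Ensembl gene. Per the submitters' processing notes, Subread 1.5.2, STAR 2.5.2b, Trimmomatic 0.36, DESeq2 and bcl2fastq 2.17 were used with genome build GRCm38 (mm10). The sources used here do not name the annotation release, the strand setting or the rule for multiply mapped reads. Symbols, coordinates and exon lengths came from GENCODE M21, which matched 49056 of 49315 IDs.

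Counts were tested on the whole table with edgeR 4.0.16 in R 4.3.3 (filterByExpr at a minimum count of 10, TMM scaling, robust quasi-likelihood fit, genotype as the only term, Benjamini-Hochberg adjustment over 16033 genes). Standard errors were taken as the log2 change over the square root of the F statistic. Scripts were tested on simulated counts. Levels are TMM-scaled CPM, and levels compared between genes are divided by the union of exons. Shares and ratios were tested over libraries with exact permutation tests in scipy 1.17.1. Copies were found with BLAST 2.17.0 at 90% identity over at least 100 bases of pseudogene transcripts, and those with at least 1% of the member's counts are named. Alternatives were other scalings, filters and tools (DESeq2 1.42.0, limma 3.58.1), the replicate block, a threshold of 0.01 and omission of each library.

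All 35 members are named, and from each neighbouring list up to 4 called genes, those that changed most at 1 CPM or more; 1 gene that this rule chose is not reported here. Ldha is given beside Ldhb, outside this rule. The members and lists were chosen with earlier results of these data known. Replicates are not said to be separate cultures, so the p-values reflect variation among these libraries, possibly technical.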

Additional observations from a re-analysis of the deposited data

How the results depend on the processing

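Members called were 8 to 11 higher and 4 to 13 lower when each library was left out in turn, with 4 lower without KO replicate 1 or WT replicate 1. Library totals gave 17 higher and 3 lower, upper quartiles 6 lower, and a threshold of 0.01 left 9 higher and 4 lower. Over all genes, leaving out a library gave 3786 to 4938 higher and 3799 to 5064 lower. The threshold of 0.01 left 3420 of all genes higher and 3467 lower. Members that were not called crossed 0 with library totals or upper quartiles: Dld at 0.068 and 0.00042, Idh3b at 0.092 and 0.023, Dlst at 0.11 and 0.039, Suclg1 at 0.11 and 0.039, Sucla2 at 0.070 and 0.0020, and with library totals Ogdh at 0.021 and Sdha at 2.3e-05. Fh1 was at -0.0049 with DESeq2 size factors, -0.0071 with no filter and -0.0049 in DESeq2. Over the left-out libraries Dlst ranged from -0.056 to 0.015, Suclg1 from -0.043 to 0.015 and Fh1 from -0.016 to 0.032. In plain counts the KO minus WT share, in percentage points, was 3.62 for Pdk2, 8.34 for Idh1, -11.8 for Idh3a, -0.568 for Idh3b and 1.89 for Idh3g. With principal transcript lengths, an alternative chosen after seeing the data, it was 6.41 for Idh1, -1.27 for Idh3b, 2.169 for Idh3g and 5.56 for Mdh1. Members with no overlapping or copied gene, also chosen after seeing the data, were 8 higher and 9 lower. This left out Mpc1, Pdha1, Pdhb, Idh3b, Mdh1 and Got2. Among all 16033 tested genes 27.8% were higher and 27.8% lower. No pairing by replicate number was seen, as deviations of same-numbered libraries correlated at -0.08, 0.06 and 0.06 and those of other pairs at -0.13 to 0.11. Column names of both groups carry the same set numbers, and with 3 libraries per group these correlations cannot settle whether sets were shared. The replicate block gave 12 members higher and 10 lower, and 4411 and 4466 of all genes. Of all called genes, 63.7% were higher with library totals, where TMM gave 4463 higher and 4463 lower. The cause of these differences was not tested.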
